A study of Homo sapiens with 12 samples.

Results

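The cytosolic heat shock proteins studied here are the products of 10 genes, HSPA1A, HSPA1B, HSPA8, HSPH1, DNAJB1, DNAJA1, HSP90AA1, HSP90AB1, HSPB1 and BAG3, which were found by symbol among the 36601 genes of the table of normalized counts. They were measured in KP4, a line of human pancreatic ductal carcinoma cells. The cells were exposed for 24 h to the vehicle DMSO, to 10 mM metformin (Met), an inhibitor of complex I of the mitochondrial electron transport chain, to 5 nM FK866 (FK), an inhibitor of the NAD salvage enzyme NAMPT, or to metformin and FK866 together (Met+FK). Each treatment had 3 libraries of RNA depleted of ribosomal RNA, numbered as replicates 1 to 3. A single line was used, and the labels do not say whether the replicates came from separate cultures, so the p-values measure only the spread between these libraries.

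Heat shock proteins are molecular chaperones that bind unfolded or newly made proteins and help them to fold, to stay soluble or to be degraded. HSP70 proteins hold their clients in a cycle of ATP hydrolysis, which J-domain proteins start and nucleotide exchange factors end, and HSP90 then matures a narrower set of clients that is rich in kinases and steroid receptors. Many of these genes are controlled by the transcription factor HSF1, which is released from chaperones when unfolded proteins accumulate and binds heat shock elements, arrays of the unit GAA and its inverse TTC. Cancer cells commonly hold high levels of these chaperones.

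Windows of 300 bases around the RefSeq starts, from 250 bases before to 50 after, were found for all 10 genes in build GRCh38.p14, 15 windows in all. They were searched for 2 neighbouring heat shock element units, GAANNTTC or TTCNNGAA, where N is any base. Each of these reads the same on the opposite strand, so both strands were covered, and 3 units in a row contain both forms. At least 1 such pair was present in 9 windows, belonging to 8 of the 10 genes, and 3 units in a row in 4 windows, belonging to HSPA8, DNAJA1, HSP90AA1 and HSP90AB1. Of all 35116 RefSeq promoter windows of the same length, 13.5% held a pair and 0.490% held 3 units in a row. No pair was found in the windows of HSPH1 and BAG3, which says only that these letters are not there. Shown here are the 250 bases before the start for the 3 most highly expressed genes, for DNAJB1 as a gene with separate pairs and for BAG3 as a gene without any, each 5′ to 3′ on the strand of the gene, with the units in capitals. The windows lie at chr11:123062137-123062386 (minus strand, HSPA8), chr6:44247693-44247942 (plus strand, the third of 3 starts of HSP90AB1), chr14:102087045-102087294 (minus strand, the second start of HSP90AA1), chr19:14518398-14518647 (minus strand, the second start of DNAJB1) and chr10:119651130-119651379 (plus strand, BAG3).
HSPA8: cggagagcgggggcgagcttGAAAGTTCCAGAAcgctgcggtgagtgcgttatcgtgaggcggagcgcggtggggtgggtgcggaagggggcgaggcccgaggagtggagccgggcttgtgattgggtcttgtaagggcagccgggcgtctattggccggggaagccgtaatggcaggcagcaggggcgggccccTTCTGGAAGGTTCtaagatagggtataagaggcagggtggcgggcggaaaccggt
HSP90AB1: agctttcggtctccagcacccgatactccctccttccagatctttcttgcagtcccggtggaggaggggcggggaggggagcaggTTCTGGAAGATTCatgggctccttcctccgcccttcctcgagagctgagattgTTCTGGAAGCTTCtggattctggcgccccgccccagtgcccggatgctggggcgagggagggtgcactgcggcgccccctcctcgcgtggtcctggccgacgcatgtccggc
HSP90AA1: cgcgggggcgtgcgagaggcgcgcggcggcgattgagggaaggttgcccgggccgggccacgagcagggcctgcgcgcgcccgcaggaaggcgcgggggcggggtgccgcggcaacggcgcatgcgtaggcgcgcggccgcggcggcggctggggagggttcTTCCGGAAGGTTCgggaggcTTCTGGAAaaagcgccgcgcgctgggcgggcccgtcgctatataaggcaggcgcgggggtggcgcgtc
DNAJB1: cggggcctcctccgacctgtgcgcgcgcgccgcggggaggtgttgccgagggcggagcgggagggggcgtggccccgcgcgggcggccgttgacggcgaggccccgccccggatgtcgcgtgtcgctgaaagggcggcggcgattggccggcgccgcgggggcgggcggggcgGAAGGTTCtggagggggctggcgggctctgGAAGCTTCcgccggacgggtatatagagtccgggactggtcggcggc
BAG3: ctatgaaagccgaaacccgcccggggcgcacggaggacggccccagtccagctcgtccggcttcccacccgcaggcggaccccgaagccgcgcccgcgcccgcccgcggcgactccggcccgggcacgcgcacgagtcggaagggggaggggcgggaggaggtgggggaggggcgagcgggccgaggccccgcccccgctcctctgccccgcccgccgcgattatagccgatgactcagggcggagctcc

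**Figure D1:**
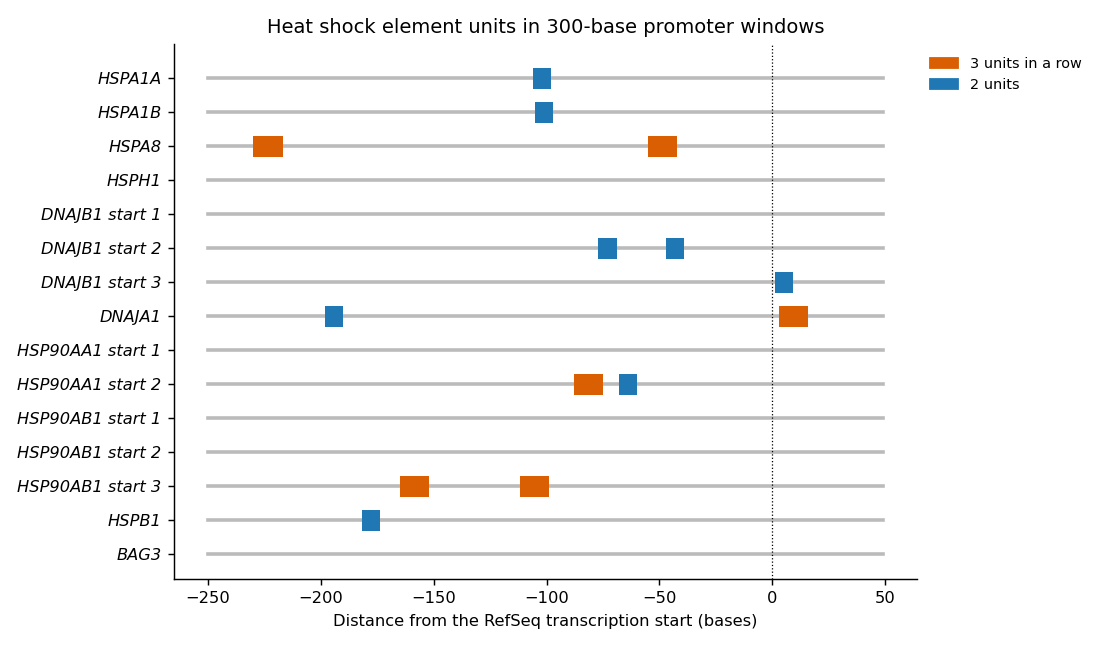
Positions of heat shock element units in the 15 RefSeq promoter windows of the 10 genes. The x axis is the distance in bases from the transcription start, whose base is counted as 0, grey lines are the windows, blue boxes are pairs of units and orange boxes are 3 units in a row. The orange boxes lie in 4 windows, and 6 of the 15 windows hold no box.

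In HSPA8 the runs of 3 units began at positions -230 and -55 relative to the start, and at the third start of HSP90AB1 at -165 and -112. The second start of HSP90AA1 had a run of 3 units from -88 and a separate pair from -68. The windows of the other starts of HSP90AB1 and HSP90AA1 held no pair. In DNAJA1 the run of 3 units, GAACTTTCCAGAA, lay 3 to 15 bases past the start. HSPA1A and HSPA1B shared the pair GAATATTC, which began at -106 and -105.

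The libraries held between 30667735 and 41052203 counted read pairs (median 34767231). Defining markers of acinar cells summed to at most 1.65 normalized counts in any library and those of endocrine cells to at most 2.30, and 1 of 5 immune and endothelial markers had a mean of at least 10. It was PTPRC, which was lower in Met against DMSO (log2 fold change -0.58). The sum of these 5 markers lay between 226 and 320 in DMSO, 157 and 195 in Met, 227 and 323 in FK, and 113 and 168 in Met+FK. Epithelial and ductal markers, of which 6 of 7 had a mean of at least 10, summed to between 21504 and 22393 in DMSO, 12322 and 14957 in Met, 14238 and 18515 in FK, and 12325 and 15361 in Met+FK. Mesenchymal markers, of which 4 of 5 had a mean of at least 10, summed to between 115880 and 125865 in DMSO, 98548 and 103615 in Met, 102618 and 113147 in FK, and 100374 and 108527 in Met+FK. The epithelial and mesenchymal sums were lower with each drug and with both than in DMSO, with no overlap, and their part in the results was not tested. Of the 4 mesenchymal genes tested, 1 was lower and 1 was higher in Met against DMSO, beside 25.9% and 24.9% of all genes tested, with a median log2 fold change of 0.19. In FK against DMSO 0 were lower and 0 higher, beside 9.84% and 11.3% of all genes, with a median of 0.16. In Met+FK against DMSO 1 was lower and 1 higher, beside 26.1% and 26.1% of all genes, with a median of 0.15. The lower mesenchymal sum thus did not hold across the genes of that list. The epithelial sum was carried by KRT18 (18307 ± 394 in DMSO and 10421 ± 1033 in Met, SD, n = 3). Of the 6 epithelial genes tested 3 were lower and 1 was higher in Met against DMSO, CDH1 (log2 fold change 1.07). Beside this count stand the same 25.9% lower and 24.9% higher of all genes tested. In bulk RNA, fewer cells of a type and less RNA per cell cannot be told apart.

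The 10 genes together took between 0.842% and 0.986% of all normalized counts in the DMSO libraries and between 0.900% and 0.982% in FK. In Met they took between 0.581% and 0.673%, and in Met+FK between 0.561% and 0.602%. Both treatments with metformin lay below both treatments without it, with no overlap.

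The heat-inducible HSP70 genes HSPA1A (chr6:31815543-31817946, hg38) and HSPA1B (chr6:31827738-31830254), which encode the same protein, could not be compared. HSPA1A had between 0.985 and 5.77 normalized counts in DMSO, 1.89 and 3.04 in Met, 2.30 and 3.78 in FK, and 0 and 1.95 in Met+FK, and HSPA1B was listed at 0 in all 12 libraries. Every stretch of 100 bases of the transcripts of HSPA1A and HSPA1B occurred more than once in the hg38 sequence when its alternate sequences were included. On the primary chromosomes, 72.4% of the stretches of HSPA1A and 68.9% of those of HSPA1B occurred in both genes. For the other 8 genes between 0% and 6.05% of the stretches occurred elsewhere, the highest share in HSPB1. Reads that match several places can be lost in counting, and whether the index of the authors held the alternate sequences is not given in the sources used here, so these values say nothing about how strongly either gene was expressed. With a mean under 10, both stayed outside the test, and 8 of the 10 genes were tested.

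Per kilobase of the canonical transcript, the 8 genes covered a wide range in DMSO. HSPA8 (chr11:123057489-123063230), the constitutive HSP70, was the highest with 57089 ± 4200 normalized counts per kilobase (SD, n = 3), which was rank 29 of 15324 tested genes. HSP90AB1 (chr6:44246166-44253888), the constitutive HSP90, followed with 35340 ± 522, and HSP90AA1 (chr14:102080738-102139699), the stress-inducible HSP90, with 17520 ± 4978. HSPB1 (chr7:76302673-76304295), a small heat shock protein that holds unfolded clients without ATP, had 8246 ± 340. BAG3 (chr10:119651370-119677819), a nucleotide exchange factor that links HSP70 to small heat shock proteins and autophagy, had 6178 ± 309 normalized counts per kilobase. The J-domain protein genes DNAJA1 (chr9:33025273-33039907) and DNAJB1 (chr19:14514769-14529770) had 4847 ± 652 and 2852 ± 340, and HSPH1 (chr13:31134973-31162388), an HSP110 protein that acts as a nucleotide exchange factor, was the lowest with 1046 ± 195. In DMSO no gene's libraries overlapped those of its neighbour in this order. In Met, DNAJA1 (3347 ± 380) and BAG3 (3336 ± 253) overlapped, and in FK there was overlap between HSP90AB1 and HSP90AA1, between HSPB1 and BAG3, and between BAG3 and DNAJA1.

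To determine the effect of metformin alone, the Met libraries were compared with DMSO. Metformin lowered 6 of the 8 genes and raised 0, with changes of between -46.1% and -30.8%, and HSPH1 and HSP90AA1 did not pass. Here and in the comparisons that follow a gene passed with an adjusted p-value under 0.05 in limma, with all tested genes adjusted together. Of the 15376 genes tested, 25.9% were lower and 24.9% were higher in this comparison. With a fold change over 1.5 as well, 5 genes were lower and 0 higher, beside 10.2% and 12.8% of all genes. The median log2 fold change was -0.69 over the 8 genes and 0.012 over all genes tested.

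**Figure D2:**
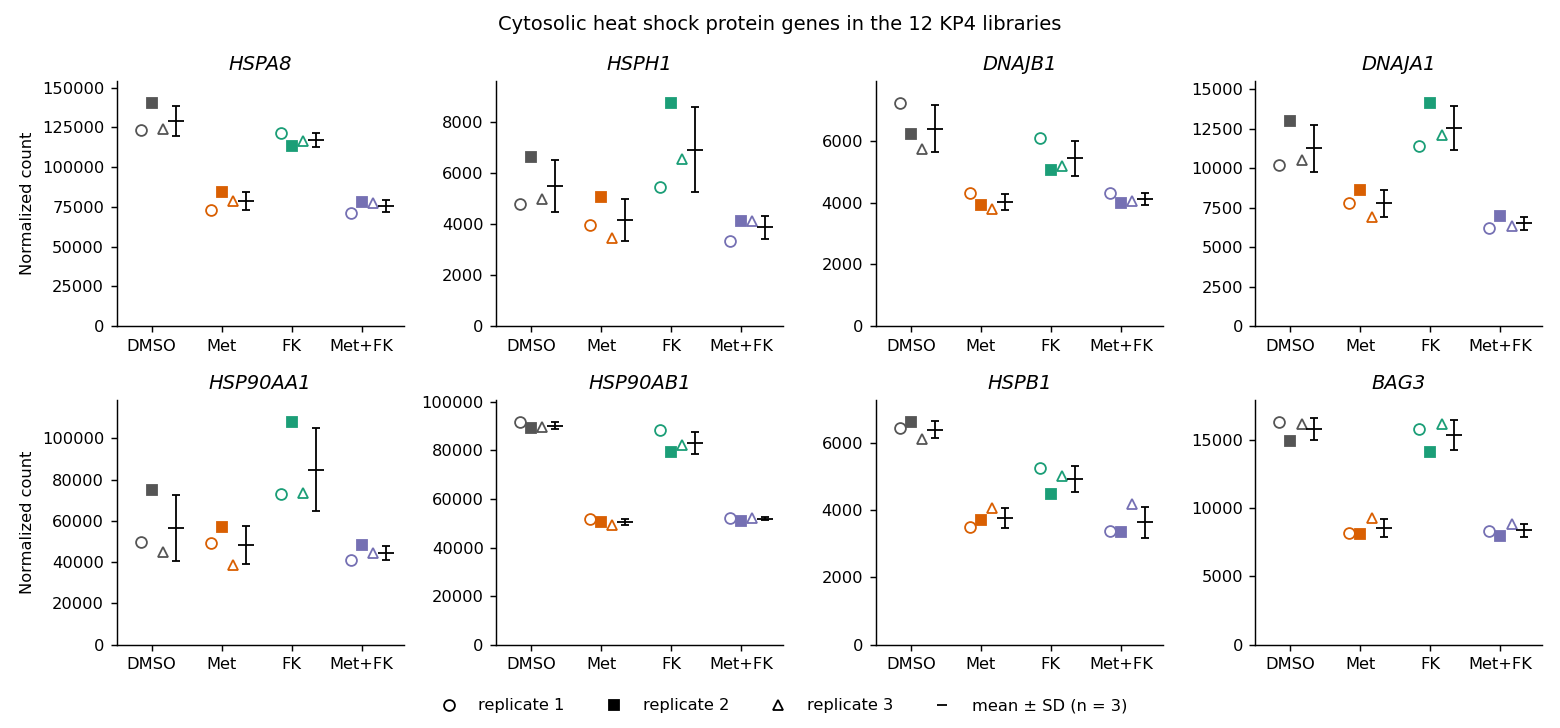
Normalized counts (linear axis from 0) of the 8 tested genes in the 12 libraries, by treatment. Symbols mark the replicate numbers and bars give the mean ± SD (n = 3). In HSPA8, HSP90AB1, HSPB1, BAG3, DNAJB1 and DNAJA1 all Met and Met+FK libraries lie below all DMSO and FK libraries, while HSP90AA1 reaches 108028 in FK replicate 2.

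Among the HSP70 chaperones, HSPA8 had 123574, 140228 and 123949 normalized counts in the DMSO libraries and 73076, 84176 and 78539 in the Met libraries. Every Met library lay below every DMSO library, with a log2 fold change of -0.72 (SE 0.071, adjusted p = 1.68e-06). HSPH1 had 4805, 6660 and 4992 in DMSO and 3986, 5056 and 3444 in Met. These ranges overlapped, and the log2 fold change of -0.40 did not pass (SE 0.17, adjusted p = 0.0631). It passed when Met replicate 2 was left out (-0.55, adjusted p = 0.0217).

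BAG3 had 16347, 14913 and 16206 normalized counts in DMSO and 8204, 8135 and 9291 in Met. In the values as deposited it showed the largest fall of the 8 genes, with a log2 fold change of -0.89 (SE 0.077, adjusted p = 4.67e-07). This place depended on the processing. With each library's trend on GC content and transcript length removed, BAG3 was at -0.75, HSP90AB1 at -0.85 and HSPA8 at -0.77. The small heat shock protein gene HSPB1 had 6466, 6638 and 6119 in DMSO and 3497, 3709 and 4079 in Met. Its log2 fold change was -0.77 (SE 0.094, adjusted p = 1.27e-05), and the groups overlapped neither in BAG3 nor in HSPB1.

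The J-domain genes, whose products hand clients to HSP70, also fell. DNAJB1 went from between 5726 and 7223 normalized counts in DMSO to between 3807 and 4300 in Met (log2 fold change -0.67, SE 0.094, adjusted p = 4.38e-05). DNAJA1 went from between 10213 and 12975 to between 6883 and 8643 (-0.53, SE 0.11, adjusted p = 0.000828). DNAJB1 overlaps TECR on the opposite strand (mean 2465 normalized counts), and the strand setting of the counting is not given in the sources used here, so reads of the genes may not be fully separated. The same holds for HSP90AA1 with WDR20 (mean 937) and for HSPA8 with AP000926.2 (mean 34.6), which both have far fewer counts than their neighbour.

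Of the HSP90 genes, HSP90AB1 passed and HSP90AA1 did not. HSP90AB1 had 91829, 89412 and 89641 normalized counts in DMSO and 51854, 50721 and 49139 in Met, a log2 fold change of -0.84 (SE 0.057, adjusted p = 5.96e-08) with little spread in either group. HSP90AA1 had 49769, 74901 and 44992 in DMSO and 49465, 56758 and 38679 in Met. Its groups overlapped broadly, and its log2 fold change of -0.21 (95% interval -0.60 to 0.18, adjusted p = 0.358) did not pass. DMSO replicate 2 carried the highest DMSO value, and without it the log2 fold change of HSP90AA1 was 0.012. The ratio of HSP90AA1 to HSP90AB1, each per kilobase, ranged from 0.397 to 0.663 in DMSO, from 0.623 to 0.886 in Met, from 0.653 to 1.08 in FK and from 0.621 to 0.745 in Met+FK. This ratio was chosen after its values were seen, and DMSO overlapped every other treatment through its highest library.

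**Figure D3:**
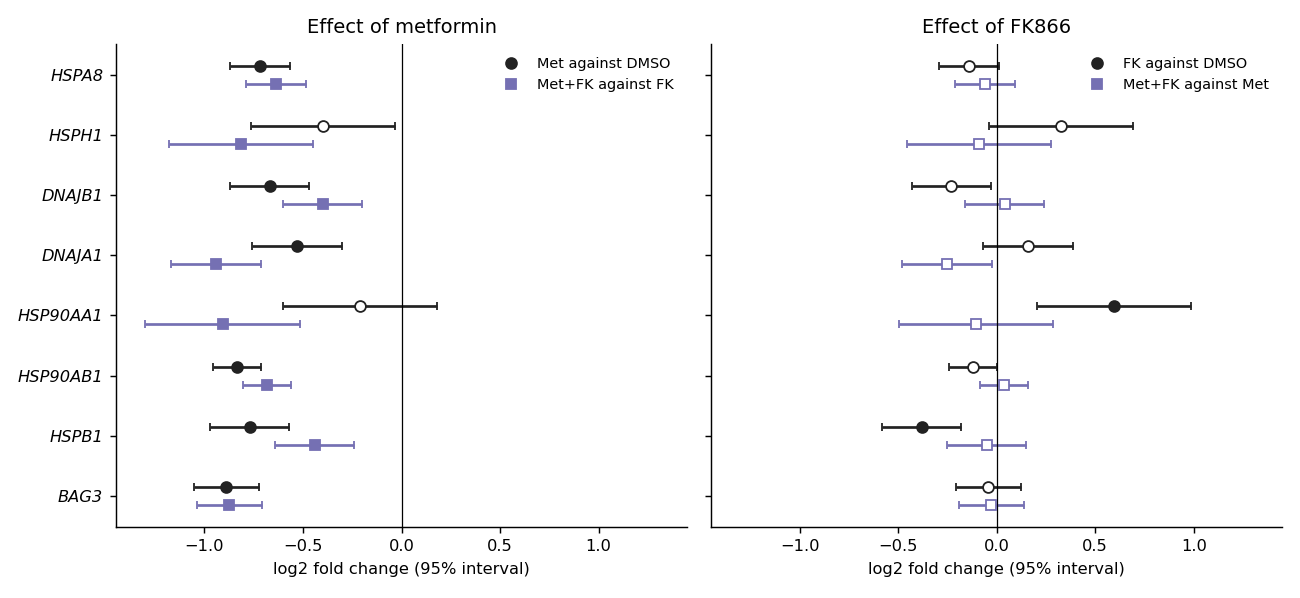
Log2 fold changes of the 8 tested genes with 95% intervals from limma, for metformin (left; Met against DMSO, black circles, and Met+FK against FK, purple squares) and for FK866 (right; FK against DMSO, black circles, and Met+FK against Met, purple squares). Filled symbols have an adjusted p-value under 0.05. All 8 genes are filled in Met+FK against FK, 6 in Met against DMSO, 2 in FK against DMSO and 0 in Met+FK against Met.

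The effect of metformin in cells that also received FK866 was read from Met+FK against FK, which shares no library with Met against DMSO. All 8 genes were lower and 0 were higher, beside 21.7% lower and 20.5% higher of all genes tested. For each of the 8 every Met+FK library lay below every FK library. How many of all genes tested were separated in this way was not counted. The median log2 fold change was -0.75, against -0.011 over all genes. In the values as deposited DNAJA1 fell most, from 11396, 14101 and 12074 normalized counts in FK to 6204, 6934 and 6341 in Met+FK (log2 fold change -0.94, SE 0.11, adjusted p = 6.21e-06). With the trend on GC content and transcript length removed BAG3 fell most (-0.94), and DNAJA1 was at -0.86. HSP90AA1 had 72818, 108028 and 73532 normalized counts in FK and 40999, 48056 and 44401 in Met+FK. It was lower by a log2 fold change of -0.91 (SE 0.18, adjusted p = 0.00106), and HSPH1 by -0.82 (SE 0.17, adjusted p = 0.00142). BAG3, HSP90AB1 and HSPA8 had log2 fold changes of -0.87, -0.68 and -0.64, and HSPB1 and DNAJB1 had the smallest, -0.44 (adjusted p = 0.00161) and -0.40 (adjusted p = 0.00329). All 8 genes passed in each fit with 1 of the libraries left out, in which between 34.7% and 41.4% of all genes tested passed.

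Against DMSO, Met+FK lowered 7 of the 8 genes and raised 0, and 26.1% of all genes tested were lower and 26.1% were higher. This comparison shares the DMSO libraries with Met against DMSO and the Met+FK libraries with Met+FK against FK. BAG3, HSPB1, HSP90AB1, DNAJA1, HSPA8 and DNAJB1 had log2 fold changes between -0.92 and -0.63. HSPH1 passed at -0.49 (SE 0.17, adjusted p = 0.0257), a call that was lost without DMSO replicate 2 (adjusted p = 0.115), without Met+FK replicate 1 (adjusted p = 0.112) and with libraries scaled to the same total (adjusted p = 0.065). HSP90AA1 did not pass at -0.31 (95% interval -0.70 to 0.078, adjusted p = 0.167).

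FK866 alone had smaller and mixed effects. HSP90AA1 rose and HSPB1 fell, so 1 of the 8 genes was higher and 1 was lower, beside 11.3% and 9.84% of all genes tested, and the median log2 fold change was -0.081, against -0.016 over all genes. HSP90AA1 had 72818, 108028 and 73532 normalized counts in FK and 49769, 74901 and 44992 in DMSO. The highest DMSO library lay above the 2 lowest FK libraries, and the log2 fold change was 0.60 (SE 0.18, adjusted p = 0.0379). HSPB1 had 5269, 4495 and 5023 in FK, all below the DMSO libraries (log2 fold change -0.38, SE 0.094, adjusted p = 0.0228). Both calls were lost when DMSO replicate 1, DMSO replicate 3 or FK replicate 2 was left out, which left 0 of the 8 genes passing, whereas 5 passed without FK replicate 1. The share of all genes that passed moved in the same way, to 0.865%, 2.47% and 1.53% in the fits with 0 and to 32.1% without FK replicate 1.

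Of the 6 genes that did not pass with FK866 alone, HSPH1 had a log2 fold change of 0.33 (adjusted p = 0.159) and DNAJA1 one of 0.16 (adjusted p = 0.267). DNAJB1 was at -0.23 (adjusted p = 0.082), HSPA8 at -0.14 (adjusted p = 0.148) and HSP90AB1 at -0.12 (adjusted p = 0.126). BAG3 was the nearest to 0, at -0.044 (95% interval -0.21 to 0.12, adjusted p = 0.685). Same-numbered DMSO and FK libraries deviated together across genes, and 5 of the 8 genes passed in the fit with a replicate block, in which 44.6% of all genes tested passed. HSP90AA1 (adjusted p = 0.000572), HSPH1 (adjusted p = 0.0113) and DNAJA1 (adjusted p = 0.0424) were then higher, and HSPB1 (adjusted p = 0.00229) and DNAJB1 (adjusted p = 0.00565) lower, in limma with the block. Within the pairs, HSP90AA1 was higher in FK than in the same-numbered DMSO library by 0.55, 0.53 and 0.71 on the log2 scale.

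The values with FK866 were ordered much like the GC content of the transcripts. HSPH1 (39.6% GC), DNAJA1 (40.8%) and HSP90AA1 (41.6%) have the lowest GC content of the 8 genes and were the genes with positive values, and HSPB1 (65.3%) has the highest and the most negative value. Across the 8 genes, which share the libraries, Pearson's r of GC content with the log2 fold change of FK against DMSO was -0.76, and with that of Met against DMSO -0.67. Over all genes, the slope of log2 value on GC content, relative to the mean of the libraries, lay between 0.043 and 0.20 per 10 percentage points in DMSO and between -0.25 and 0.0027 in FK. Replicate 2 had the lowest slope within each treatment and also the highest value of HSPH1, DNAJA1 and HSP90AA1 within each treatment.

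With the trend on GC content and transcript length removed from each library, 0 of the 8 genes passed in FK against DMSO in limma. Of all genes tested 10.9% passed in that fit, against 21.1% with the values as deposited. HSP90AA1 was then at 0.37 (adjusted p = 0.0692), HSPB1 at -0.13 (adjusted p = 0.138), HSPH1 at -0.019, DNAJA1 at -0.054 and BAG3 at 0.13. With the replicate block as well, 3 of the 8 genes passed, beside 20.4% of all genes tested. They were HSP90AA1 (0.37, adjusted p = 0.0031), BAG3 (0.13, adjusted p = 0.0245), whose sign had turned, and HSPA8 (-0.20, adjusted p = 0.0359). Without the block, the same correction left all 8 genes lower in Met against DMSO, with HSPH1 at -0.70 (adjusted p = 4.32e-06) and HSP90AA1 at -0.41 (adjusted p = 0.0105). Of all genes tested 57.2% passed in that fit, against 50.9% with the values as deposited. Whether GC content differed between the libraries through the treatment or through library preparation was not tested.

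**Figure D4:**
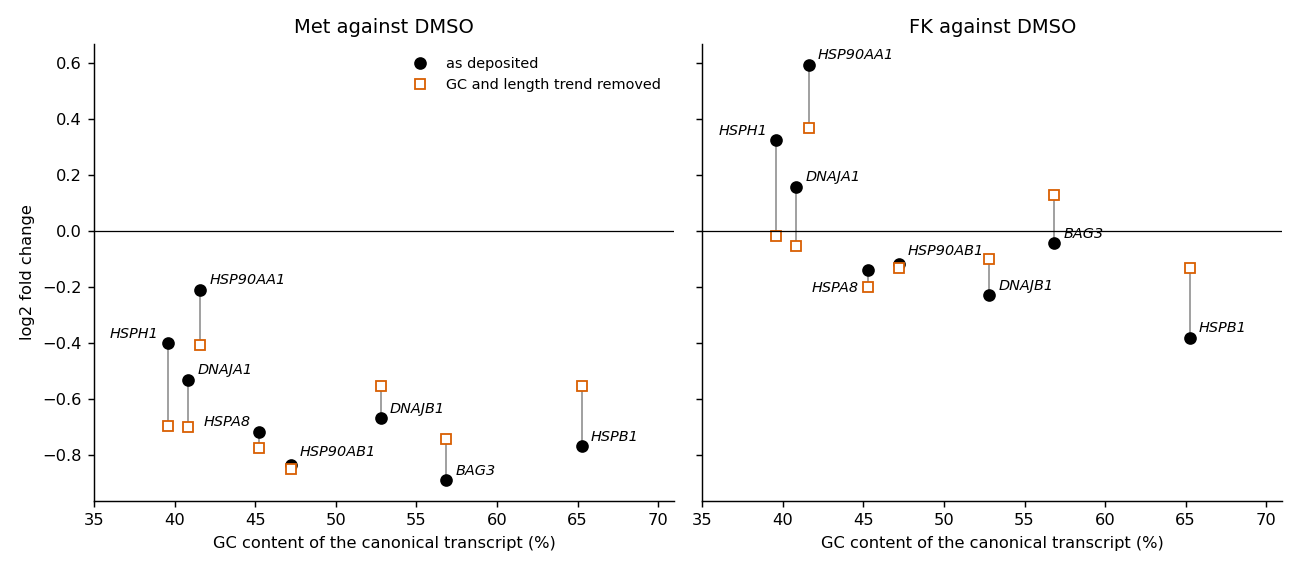
Log2 fold change of the 8 tested genes against the GC content of their canonical transcript, for Met against DMSO (left) and FK against DMSO (right). Black circles use the values as deposited and orange squares use values with each library's trend on GC content and length removed. Without the trend all 8 genes stay below 0 on the left, and on the right HSP90AA1 moves from 0.60 to 0.37 and HSPB1 from -0.38 to -0.13.

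Adding FK866 to metformin was tested by Met+FK against Met, and 0 of the 8 genes passed in limma, with or without a replicate block, in edgeR or in DESeq2. Of all genes tested, 0.0911% were higher and 0.0065% lower. At an unadjusted p-value under 0.05 there was 1 of the 8 genes, beside 1051 of the 15376 genes tested. This was DNAJA1, with 7758, 8643 and 6883 normalized counts in Met and 6204, 6934 and 6341 in Met+FK (log2 fold change -0.25, 95% interval -0.48 to -0.025, adjusted p = 0.686). DNAJA1 was lower in all 3 same-numbered pairs, and it passed in limma with the block and the GC and length trend removed (-0.21, adjusted p = 0.00923), where 3.39% of all genes tested passed. The log2 fold changes of the other 7 lay between -0.10 and 0.040. The intervals were narrowest for HSP90AB1 (-0.085 to 0.16) and widest for HSP90AA1 (-0.50 to 0.29), so a change of HSP90AA1 as large as a log2 value of -0.50 could not be told from 0.

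The interaction, that is, how far the FK866 effect in metformin-treated cells differed from its effect in DMSO, also passed for 0 of the 8 genes in limma, in edgeR or in DESeq2, beside 0.0065% (higher) and 0.052% (lower) of all genes. At an unadjusted p-value under 0.05 there were 3 of the 8 genes, beside 4695 of the 15376 genes tested. HSP90AA1 was at -0.70 (SE 0.26, adjusted p = 0.116), DNAJA1 at -0.41 (SE 0.15, adjusted p = 0.116) and HSPB1 at 0.33 (SE 0.13, adjusted p = 0.127). With the replicate block 5 of the 8 genes passed, beside 32% of all genes tested, namely HSP90AA1 (adjusted p = 0.00563), DNAJA1 (adjusted p = 0.00647) and HSPH1 (adjusted p = 0.0277) with lower and DNAJB1 (adjusted p = 0.023) and HSPB1 (adjusted p = 0.0389) with higher values. With the trend on GC content and length removed as well, 2 of the 8 genes passed, beside 6.94% of all genes tested. They were HSP90AA1 (-0.43, adjusted p = 0.0242) and BAG3 (-0.19, adjusted p = 0.0425), which was not among the 5 and whose sign had turned.

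HSF1, the main heat shock transcription factor, had 2907 ± 141 normalized counts in DMSO and 2316 ± 218 in Met (SD, n = 3), a log2 fold change of -0.33 (SE 0.10, adjusted p = 0.0123). This call of HSF1 was lost without DMSO replicate 1 (adjusted p = 0.0528), without Met replicate 1 (adjusted p = 0.0563) and with the same total per library (adjusted p = 0.0777). In Met+FK against FK, HSF1 was at 0.066 (adjusted p = 0.626). HSBP1, which binds HSF1, fell in Met against DMSO (-0.45, adjusted p = 0.000101) and HSF2BP rose (0.53, adjusted p = 0.01), while HSF2 did not pass (0.087, adjusted p = 0.603). Of the 5 genes tested in the list of heat shock factors and regulators, 2 were lower and 1 was higher, beside 25.9% and 24.9% of all genes tested.

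HSPA6, a strictly heat-inducible HSP70 gene, had few counts, with 26.5, 18.7 and 14.3 in DMSO and 14.6, 11.3 and 13.2 in Met (log2 fold change -0.53, adjusted p = 0.289). HSPA2, another HSP70, went from 629 ± 12.9 normalized counts in DMSO to 271 ± 41.3 in Met (SD, n = 3; log2 fold change -1.22, adjusted p = 1.68e-06). In the list of other HSP70 and HSP110 genes, 3 of 8 rows were lower and 1 was higher, HSPA13 (0.72). HSPA14 stood in 2 of these rows under separate identifiers, of which 1 passed (-0.38). The call of HSPA13 was lost without DMSO replicate 3 (adjusted p = 0.0511) or Met replicate 2 (adjusted p = 0.0517), and that of HSPA14, among others, without DMSO replicate 1, DMSO replicate 2 or Met replicate 3 (highest adjusted p = 0.188). Of 18 alternatives, HSPA13 kept its call in 16 and HSPA14 in 11. Without DMSO replicate 2 or Met replicate 3, 1 of the rows was lower. Of 10 other cytosolic J-domain genes, 5 were lower, among them DNAJB5 (-0.77) and DNAJC5 (-0.43), and DNAJB4 was higher (0.85). Beside the counts of both lists, 25.9% of all genes tested were lower and 24.9% higher in Met against DMSO.

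Of 16 HSP90 co-chaperone genes tested, 10 were lower and 1 was higher in Met against DMSO, with a median log2 fold change of -0.32. Beside this and the other counts of this paragraph, 25.9% of all genes tested were lower and 24.9% higher. PPP5C, a phosphatase that docks on HSP90, was at -0.85, and STIP1, which passes clients from HSP70 to HSP90, at -0.83, and CDC37L1 rose by 0.78. STIP1 went from 17853 ± 286 normalized counts in DMSO to 10073 ± 413 in Met and 10294 ± 761 in Met+FK (SD, n = 3). Of the 9 HSP70 co-chaperones and exchange factors, 2 were lower (STUB1, a ubiquitin ligase, -0.48, and HSPBP1, -0.33) and 2 were higher (BAG2, 0.35, and ST13, 0.27), and with the GC and length trend removed BAG2 was at -0.021 and ST13 at 0.024 (adjusted p = 0.779 and 0.712). STUB1 kept its call in all 18 alternatives, HSPBP1 in 16, ST13 in 13 and BAG2 in 11. Among the fits with a library left out, the call of HSPBP1 was lost without Met replicate 2 (adjusted p = 0.0657), that of BAG2 without DMSO replicates 1 or 3 or Met replicates 1 or 2 (highest adjusted p = 0.162), and that of ST13 without DMSO replicate 3 or Met replicates 1 or 2 (highest adjusted p = 0.085). In the chaperonin TRiC and its partner prefoldin, which fold actin and tubulin, 9 of 14 genes were lower, with CCT3 at -0.53 and CCT2 at -0.52, and PFDN2 was higher (0.35). In that list 0 genes had a fold change over 1.5.

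Beside the shares of 25.9% lower and 24.9% higher of all genes in Met against DMSO stand the next lists. Of 17 other HSF1 target genes tested, 10 were lower and 1 was higher, with a median of -0.36. They included IER5 (-0.87) and HSPE1 (-0.87), while SERPINH1, a collagen chaperone, was higher (0.37), and some of these genes also stand in the other lists. Of 9 other small heat shock protein symbols, HSPB11 alone had a mean of at least 10, and it was lower (-0.63). In Met+FK against FK, 10 of the 16 HSP90 co-chaperones, 9 of the 14 chaperonin and prefoldin genes and 11 of the 17 HSF1 target genes were lower. In these lists 0, 1 and 1 genes were higher, and of all genes tested 21.7% were lower and 20.5% higher.

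In the endoplasmic reticulum 7 of 14 genes were lower and 3 were higher in Met against DMSO, with SDF2L1 at -1.40 and CALR at -0.92, and HSPA5, the HSP70 of that compartment, at 1.33 and DNAJB9 at 1.05. In mitochondria 4 of 11 genes were lower, with HSPE1 at -0.87 and the exchange factor GRPEL1 at -0.57, and 3 were higher, among them HSPA9, the mitochondrial HSP70 (0.72), and GRPEL2 (0.61). Beside these counts stand the 25.9% lower and 24.9% higher of all genes tested. HSPA8, HSPA5 and HSPA9, the constitutive HSP70 proteins of the cytosol, endoplasmic reticulum and mitochondria, thus had log2 fold changes of -0.72, 1.33 and 0.72. These lists are described by their counts alone.

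**Figure D5:**
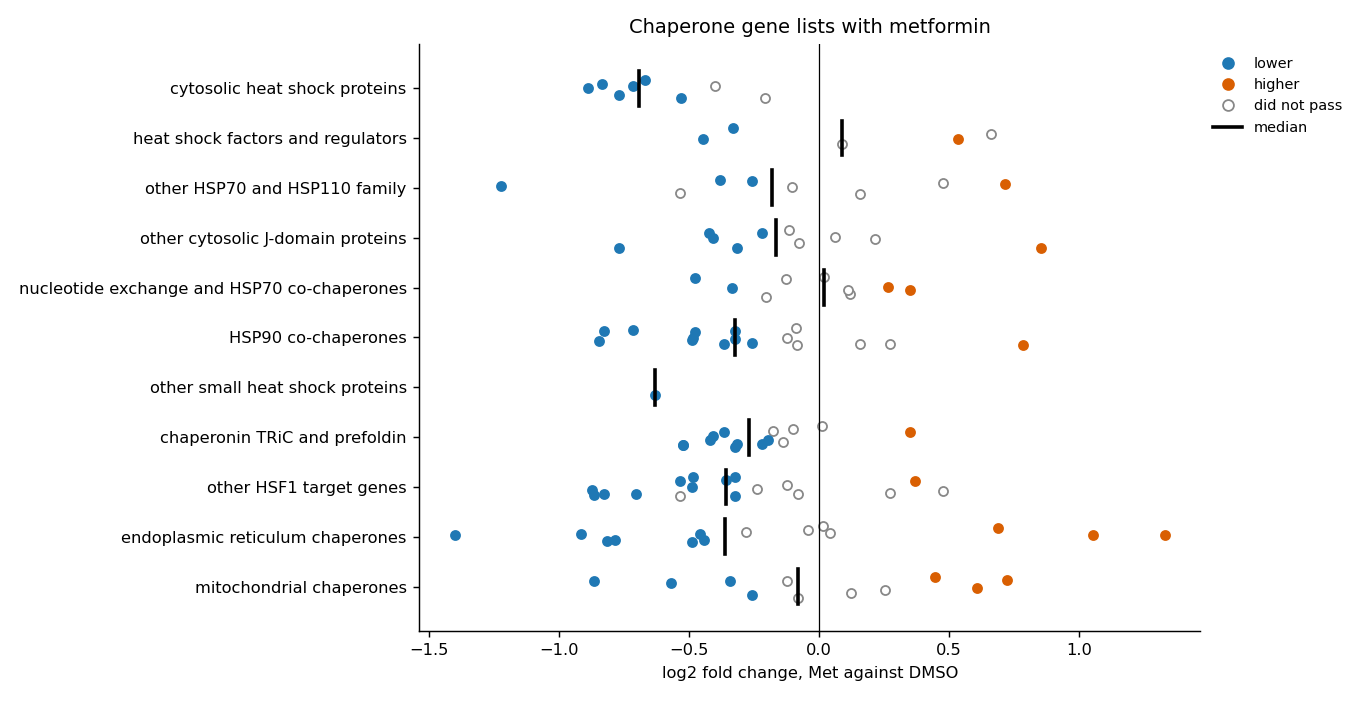
Log2 fold changes of Met against DMSO for the genes of each chaperone list, 1 point per gene. Blue points were lower and orange points higher with an adjusted p-value under 0.05, open points did not pass, and black lines are medians. The line for the cytosolic heat shock proteins stands at -0.69, and those for the HSP90 co-chaperones and the other HSF1 target genes at -0.32 and -0.36.

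Across the 12 libraries all 28 pairs of the 8 genes were positively correlated (Pearson's r of log2 values between 0.34 and 0.98, median 0.86), as a description of libraries that share 4 treatments. The genes outside the list with the most similar pattern, among those with a mean of at least 100, were FAM83D and KPNA2 for HSP90AB1 (both r = 0.998), ESPL1 (0.996) and IPO9 (0.994) for BAG3, and TUBB3 and PMPCA (both 0.994) for HSPB1. They were PRIM2 (0.991) and DYNLL1 (0.987) for HSPA8, NUP107 (0.995) and PSMC6 (0.992) for HSP90AA1, and KIF1BP and MSH6 (both 0.993) for DNAJA1. For HSPH1 they were PPHLN1 (0.991) and CIP2A (0.988), and for DNAJB1 NDUFS5 (0.989) and UQCR10 (0.987). No gene was named for more than 1 of the 8.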

How the data were processed

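RNA of KP4 cells was sequenced in 12 libraries, 3 per treatment. Adapters were removed by the authors with cutadapt, reads were mapped to hg38 with STAR, pairs were assigned to genes with featureCounts, and counts were divided by DESeq2 size factors. The deposited values are thus a signal, normalized counts, and the annotation is not given in the sources used here. Counted read pairs were recovered from the smallest step of each library, and 100% of the values were whole within 0.01 reads. Replicates differed by more than sampling noise. No counting intervals are given, as errors come from the replicates. The test was limma-trend (limma 3.58.1, R 4.3.3) on log-transformed values, log2(normalized count + 1), with a mean fitted for each treatment in the 15376 genes whose mean reached 10, and fold changes are on that scale. Comparisons were adjusted with the Benjamini-Hochberg method over all genes tested. Scripts were tested on simulated data. Alternatives, listed in the section on how the results depend on the processing, included edgeR 4.0.16 and DESeq2 1.42.0 on the recovered read pairs. GC content and length came from the GENCODE 44 canonical transcript, and trends were removed by loess (span 0.3). Residuals of libraries with the same number, taken from the treatment means, correlated across genes at 0.25, 0.42 and 0.22 for DMSO and FK, and at 0.17, 0.20 and 0.23 for Met and Met+FK. With the GC trend removed, all of these correlations were lower, between 0.071 and 0.17. Such pairs are a hint from the data and not from the labels. Among the fits, only those with the replicate block used them, and the main fit was unpaired. The genes and lists were chosen with earlier results of these data known. Named pathway genes are up to 2 of the highest and 2 of the lowest that passed per list in Met against DMSO, plus HSF1, HSF2, HSPA6 and HSPA2.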

Additional observations from a re-analysis of the deposited data

How the results depend on the processing

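The alternatives were pseudocounts of 0.1 and 10, every gene with a value above 0, at least 10 in every library, the same total per library, TMM scaling, only the 6 libraries compared, the replicate block, removal of the GC and length trend with and without the block, edgeR, DESeq2, a fold change over 1.5, and each library left out. Genes passing stayed between 5 and 8 in Met against DMSO and between 6 and 8 in Met+FK against DMSO and in Met+FK against FK. The share of all genes that passed ran from 23% to 61.6% in Met against DMSO. It ran from 25.1% to 64.6% in Met+FK against DMSO and from 18.6% to 58.9% in Met+FK against FK. In FK against DMSO, 2 became 1 with every gene above 0 or with the fold threshold, 0 with only the 6 libraries or with the GC trend removed, 5 with the replicate block, 3 with the block and the GC trend removed, and from 0 to 5 with a library left out. The share of all genes that passed there was 21.1% in the main fit. It was 6.39% with every gene above 0, 3.49% with the fold threshold and 0.989% with only the 6 libraries. With the GC trend removed it was 10.9%, with the block 44.6%, and with both 20.4%. In Met+FK against Met 1 gene passed with the block and the GC trend removed, DNAJA1 (-0.21, adjusted p = 0.00923, limma with the block). The interaction went from 0 to 5 with the replicate block and to 2 with the GC trend removed as well, of which BAG3 was not among the 5. The block added HSPH1 in Met against DMSO and HSP90AA1 in Met+FK against DMSO (adjusted p = 0.00157 and 0.00997 in limma), where pairing was not shown, and changed no other call there.

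Signs turned with the GC trend removed, with or without the block, in FK against DMSO for HSPH1 (-0.019), DNAJA1 (-0.054) and BAG3 (0.13), in the interaction for BAG3 (-0.19), and in Met against DMSO for HSF2 (-0.13) and BAG2 (-0.021). BAG3 also turned in the interaction with the same total (-0.046), TMM (-0.0090) and edgeR (-0.012), and HSP90AB1 in Met+FK against Met with the same total (-0.0027). The cause was not tested. With a library left out, values ranged from -0.36 to 0.012 for HSP90AA1 in Met against DMSO, from -0.086 to 0.016 for BAG3 in FK against DMSO and from -0.044 to 0.078 for BAG3 in the interaction. In Met+FK against Met they ranged from -0.22 to 0.059 for HSPH1, from -0.26 to 0.021 for HSP90AA1, from -0.16 to 0.0079 for HSPB1 and from -0.069 to 0.035 for BAG3. The same total moved the median over all genes in Met against DMSO from 0.012 to 0.13. HSPA1A and HSPA1B summed stayed under a mean of 10 and gave no value. The pathway lists were added to the alternatives after the data were seen. Without the fold threshold, genes lower in Met against DMSO numbered from 8 to 12 for the HSP90 co-chaperones and for the other HSF1 targets, from 7 to 11 for the chaperonin list, from 7 to 10 for the endoplasmic reticulum, from 1 to 4 for other HSP70 genes and from 1 to 5 for HSP70 co-chaperones, and with it 3, 4, 0, 4, 1 and 0.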
